A study of Mus musculus with 6 samples.

Results

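The genes of the collagen chains were described in the cerebral cortex of young adult and aged mice. All genes whose symbol has the form Col, a type number, a and a chain number were taken from the deposited tables, which gave 44 of the 55421 genes in the files. They were divided into 11 fibrillar chains, 8 chains of basement membranes and 25 other chains. RNA was sequenced from the cortex of wild-type male C57BL/6J mice, 3 aged 6 months (numbered 10, 11 and 17) and 3 aged 24 months (numbered 2, 4 and 5), all on a standard diet, anesthetized with isoflurane and killed by cervical dislocation. The labels give no transgene and no other treatment, and age is the one labelled difference between the groups. Libraries were made from 10 ng of total RNA with a low-input kit and sequenced as single reads, and the labels give each library as a separate mouse. The comparison asked which collagen mRNAs differ between the cortex of 24-month and 6-month mice.

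Collagens are proteins of the extracellular matrix whose chains wind around each other in a triple helix. Fibrillar chains assemble into the fibers that give tissues tensile strength, type IV chains form the meshwork of basement membranes, and the remaining types link fibrils to their surroundings, build microfilaments or small networks, or span the cell membrane. In the brain, fibrillar collagens are made mainly by fibroblasts of the meninges and around vessels, type IV collagens by cells of the vessel wall, and some non-fibrillar collagens by neurons.

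Library totals ranged from 29495379 to 36494240 counts. Levels are given in CPM, the counts relative to the library size as scaled by the TMM method, whose factors were 0.921 to 0.946 at 6 months and 1.04 to 1.10 at 24 months, and as CPM per kb of exonic length or TPM where genes are compared with each other. Values of single mice are in the order of mice 10, 11 and 17 and of mice 2, 4 and 5. Of 32905 genes tested with edgeR's quasi-likelihood test, 0 passed 1% false discovery rate (FDR), with a smallest adjusted p of 0.021, against 1703 with its likelihood ratio test, 227 with DESeq2 and 42 with no filter on low counts. Calls are given at 10% FDR of the quasi-likelihood test. The median log2 fold change of 24 against 6 months was 0.15 over all genes tested, and 0.34 when libraries were scaled by their totals alone, which moved the calls at 10% FDR from 3299 higher and 2741 lower to 4121 and 318. The 24-month libraries also held more counts on the olfactory receptor (Olfr) genes, which are best known from the sensory neurons of the nose. Pooled over 1119 genes, they lay at 0.0243, 0.0255 and 0.0264 CPM per kb at 6 months and at 0.0916, 0.0759 and 0.0566 in mice 2, 4 and 5, and whether these counts come from transcripts of the cortex or from a background was not tested. Of the marker lists, neuron (6 genes), astrocyte (6) and microglia (6) markers had 1 gene lower (Syt1), 1 higher (Gfap) and 1 higher and 1 lower (Tmem119 and Csf1r), and none of the endothelial (10), pericyte and smooth muscle (10), oligodendrocyte (6), choroid plexus (7) and fibroblast (13) markers was called. In bulk tissue, fewer cells of a type and less RNA per cell cannot be told apart.

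All 44 collagen chains passed the filter of 10 counts over the 6 libraries. At 10% FDR, 6 chains were higher at 24 months (10.0% of all genes tested were called higher) and 1 was lower (8.33% of all genes). The chains that rose were Col7a1, Col2a1, Col6a6, Col27a1, Col4a4 and Col4a3, and the chain that fell was Col12a1. By the edgeR quasi-likelihood test 0 chains passed 1% FDR, while 8 higher and 1 lower had an unadjusted p under 0.05. The likelihood ratio test of edgeR placed 4 chains past 1% FDR, and DESeq2 placed 0. The levels of the 3 mice of each age did not overlap for 7 chains that were higher, the 6 above and Col14a1, and for Col12a1, which was lower. Of all genes tested, 20.0% were higher and 16.3% lower in this way. The median log2 fold change over the 44 chains was 0.15, the same as over all genes tested (0.34 for both when scaled by totals). Of the chains, 27 were fitted higher and 17 lower, against 19231 and 13674 of the 32905 genes tested. The 38 chains of at least 1 CPM on average had a median of 0.05, with 3 called higher and 1 lower. All 15761 genes of that level had a median of -0.14, with 383 called higher and 2725 lower.

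The calls depended on single mice, as did those of the whole table. Over the whole table, 0 genes were called without mouse 10 or 4, 1 without mouse 11, and 72 higher and 104 lower without mouse 2. Without mouse 17 these numbers were 1224 and 1252, and they were 4364 and 3634 without mouse 5. Without mouse 10, 11, 2 or 4 no chain was called at 10% FDR, with smallest adjusted p-values of 0.15, 0.145, 0.109 and 0.166, while 7 to 11 chains had an unadjusted p under 0.05. Without mouse 17, 4 chains were called higher (Col2a1, Col4a4, Col6a6 and Col7a1) and 0 lower. Without mouse 5, 7 were called higher and 2 lower, with Col6a2 (log2 fold change 0.57) and Col19a1 (-0.78) added to the list.

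**Figure D1:**
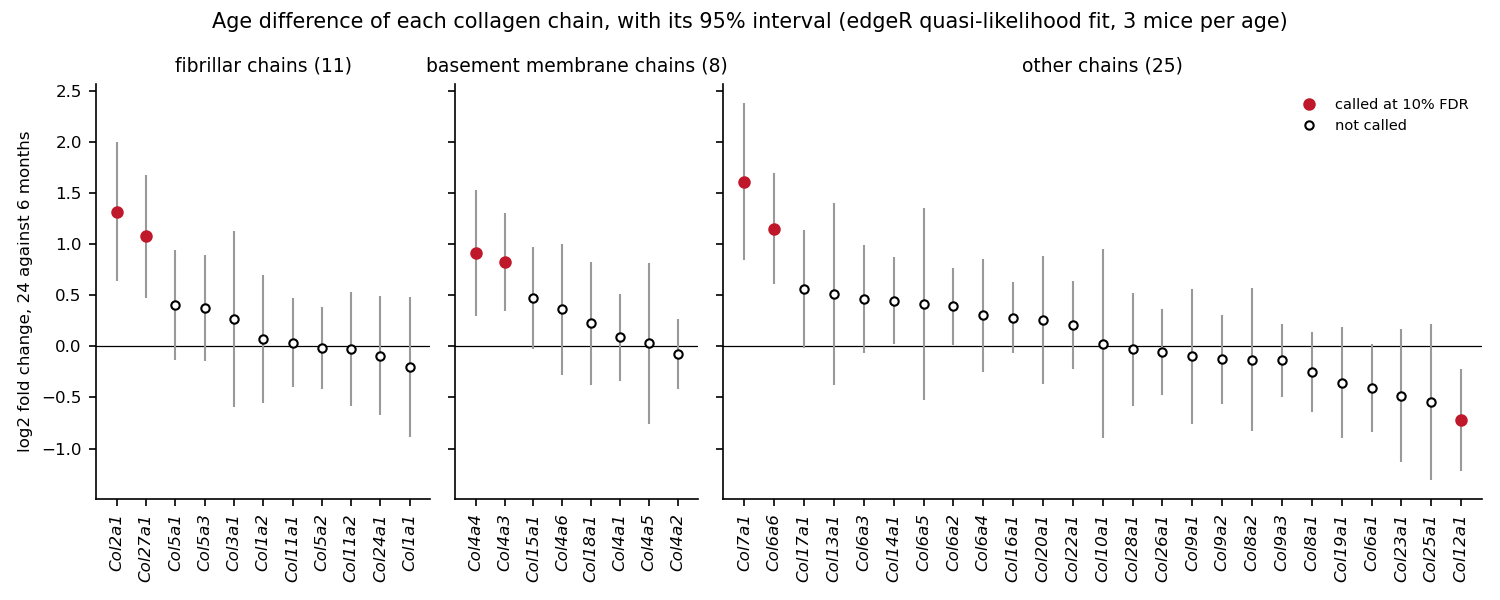
Log2 fold change of 24 against 6 months (y axis) of each of the 44 collagen chains, with bars for the 95% interval, in the fibrillar, basement membrane and other classes, ordered by value. Filled points are the 6 chains called higher and the 1 chain called lower at 10% FDR; of the other 37 intervals, all but those of Col6a2 and Col14a1 include 0.

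The collagen mRNA of the cortex as a whole was small. The 44 chains together took 0.0232% of all counts in mouse 10 and at most 0.0275% in any library, and their summed level was 253, 251 and 293 CPM at 6 months and 219, 248 and 260 at 24 months, with overlapping ages. The genes are long, with a median exonic length of 7543 bases (3095 for Col9a2 to 15228 for Col12a1) against 2649 over all genes tested, so CPM and CPM per kb can rank them differently. Per kb at 6 months, the most abundant were Col19a1 (7.02 CPM per kb), Col6a1 (6.90), Col4a2 (3.77), Col25a1 (2.81), Col6a2 (1.54), Col9a3 (1.39) and Col1a1 (1.18). Of these 7, only Col1a1 is a fibrillar chain. The lowest was Col7a1, at 0.0354 CPM per kb.

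**Figure D2:**
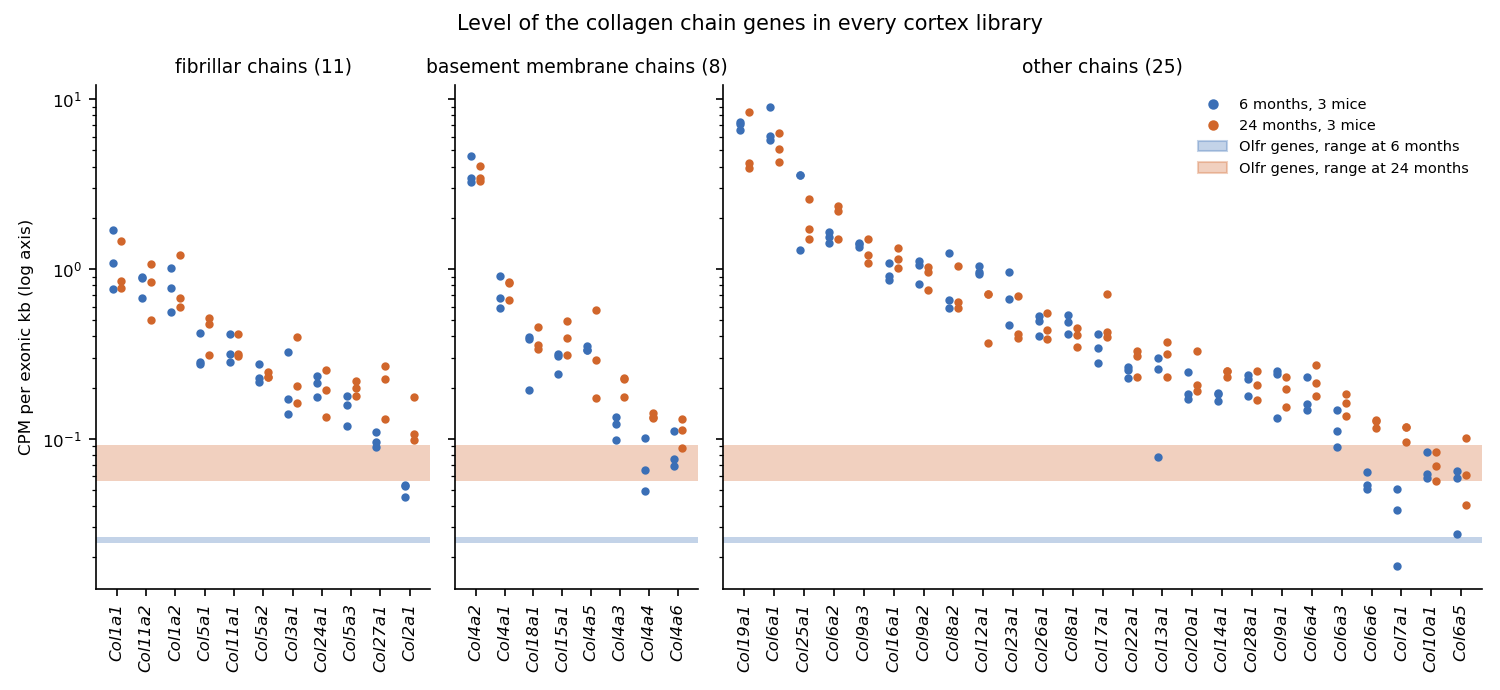
CPM per exonic kb (y axis, log scale) of each collagen chain in every library, in 3 panels by class, with blue points for the 6-month mice and orange points for the 24-month mice. Shaded bands give the range of the pooled Olfr genes at each age; the chains span from 0.0178 (Col7a1, mouse 17) to 8.92 (Col6a1, mouse 11) CPM per kb.

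Of the 11 fibrillar chains, 2 rose (Col2a1 and Col27a1), 0 fell and 9 were not called, against 10.0% higher and 8.33% lower of all genes tested. The median log2 fold change of these 11 chains was 0.07. Their summed level was 30.9, 38.4 and 47.2 CPM at 6 months and 35.1, 52.0 and 38.8 at 24 months, and the ages overlapped. Col1a1 and Col1a2, the chains of type I collagen, and Col3a1, the chain of type III collagen, are the main collagens made by fibroblasts. Col1a1 was at 5.00, 7.10 and 11.1 CPM at 6 months and 5.06, 9.51 and 5.56 at 24 months, with a log2 fold change of -0.20 (95% interval -0.89 to 0.48). Col1a2 was at 6.94, 9.59 and 12.6 CPM at 6 months and 7.37, 14.9 and 8.38 at 24 months, with a log2 fold change of 0.07 (95% interval -0.55 to 0.70). Col3a1 was at 1.36, 1.68 and 3.18 CPM at 6 months and 2.00, 3.90 and 1.59 at 24 months, with a log2 fold change of 0.27 (95% interval -0.59 to 1.13). In these 3 chains the spread within an age was larger than the difference between ages, and the intervals reach from a fall to a rise.

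At each age the same mouse stood highest in Col1a1, Col1a2 and Col3a1, mouse 17 at 6 months and mouse 4 at 24 months. Relative to the mean of its age, Col1a1 was at 0.647, 0.920 and 1.43 in mice 10, 11 and 17 and at 0.754, 1.42 and 0.828 in mice 2, 4 and 5. Col8a2, a chain of the short-chain network collagen type VIII, followed the same order in mouse 17 (1.50) and mouse 4 (1.37), whereas Col5a2, a fibrillar chain that joins type I fibrils, was at 0.945 and 1.05 in them. Markers of meningeal and perivascular fibroblasts moved with them: all 13 of 13 (Igf2, Dcn, Lum, Aldh1a2 and Slc6a13 among them) were highest in mouse 17 and in mouse 4, none was at 0 in any library, and their sum ranged from 61.7 to 130.3 CPM at 6 months and from 56.2 to 135.7 at 24 months. Of the 44 chains, 12 (27.3%) were highest in both mice, against 9.65% of all genes tested. These 12 were Col1a1, Col1a2, Col3a1, Col4a4, Col4a6, Col6a3, Col6a6, Col8a1, Col8a2, Col9a2, Col13a1 and Col18a1. The 2 mice were singled out after the levels were seen, and Col1a1, Col1a2 and Col3a1, which are highest in them, are counted in the 12. The part of fibroblast content in the fibrillar levels was not tested. Without mice 17 and 4 together, an alternative chosen after seeing the data, the log2 fold changes were -0.18 for Col1a1, -0.06 for Col1a2 and 0.25 for Col3a1. No gene of the whole table was then called, and 8 chains had an unadjusted p under 0.05.

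**Figure D3:**
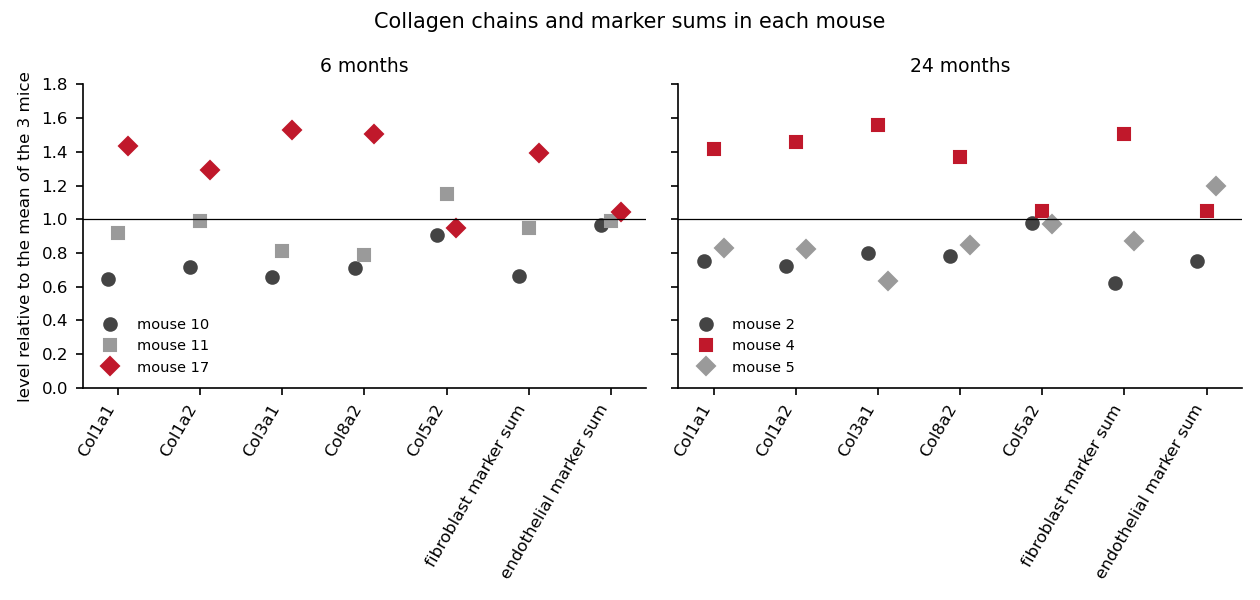
Level relative to the mean of the 3 mice of the same age (y axis) of 5 collagen chains and of the summed fibroblast and endothelial markers, 1 point per mouse, with mouse 17 and mouse 4 in red. Col1a1, Col1a2, Col3a1 and Col8a2 are highest in those 2 mice, as is the fibroblast marker sum, whereas Col5a2 lies between 0.905 and 1.15 in all 6.

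The ratio of Col1a1 to Col1a2 counts, which no scaling changes, was 0.720, 0.740 and 0.881 at 6 months and 0.686, 0.639 and 0.663 at 24 months. The ages did not overlap in this ratio, which was noticed after the values were seen and was not tested. Of the other chain ratios computed, those of Col3a1 to Col1a2, Col4a1 to Col4a2, Col4a3 to Col4a4 and Col6a3 to Col6a2 overlapped between the ages. The ratio of Col6a1 to Col6a2 did not. The proteins of Col1a1 and Col1a2 join in type I collagen as a pair of Col1a1 chains and a single Col1a2 chain.

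The fibrillar chains of types V and XI regulate the diameter of fibrils. Col5a1 was at 2.43, 3.59 and 2.35 CPM at 6 months and 4.04, 4.42 and 2.65 at 24 months (log2 fold change 0.40, SE 0.24). Col5a2 was at 2.08, 2.64 and 2.17 CPM at 6 months and 2.22, 2.37 and 2.20 at 24 months (log2 fold change -0.02, SE 0.18), the smallest SE of the class. Col5a3 was at 0.811, 1.07 and 1.22 CPM at 6 months and 1.48, 1.21 and 1.35 at 24 months (log2 fold change 0.38, SE 0.23). The Col5a1 values of the ages overlapped, as did those of Col5a2 and Col5a3. Col11a1 was at 3.99, 3.59 and 5.25 CPM at 6 months and 4.01, 3.90 and 5.23 at 24 months and Col11a2 at 4.64, 6.11 and 6.05 CPM at 6 months and 3.45, 5.75 and 7.29 at 24 months. Both type XI chains were fitted near 0, with log2 fold changes of 0.03 (95% interval -0.40 to 0.47) and -0.03 (95% interval -0.58 to 0.53). Col24a1, a fibrillar chain of a separate evolutionary branch, was at 1.78, 1.33 and 1.62 CPM at 6 months and 1.02, 1.47 and 1.94 at 24 months, with a log2 fold change of -0.09 (95% interval -0.67 to 0.49).

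Col27a1 (chr4:63214004-63334991, plus strand, GRCm38) belongs to the same branch as Col24a1 and is known from cartilage. It was at 1.43, 1.16 and 1.25 CPM at 6 months and 3.48, 2.92 and 1.70 at 24 months, and the ages did not overlap. Its log2 fold change was 1.08 (SE 0.27), with an adjusted p of 0.057. Col2a1 (chr15:97975602-98004695, minus strand), the chain of type II collagen and the main collagen of cartilage, had counts of 13, 17 and 16 in the 6-month mice and of 32, 56 and 31 in the 24-month mice. These counts correspond to 0.422, 0.493 and 0.489 CPM at 6 months and 0.986, 1.62 and 0.911 at 24 months, again without overlap, and to a log2 fold change of 1.32 (SE 0.31), with an adjusted p of 0.055. Both chains were low in cortex, with 0.0983 and 0.208 CPM per kb at 6 and 24 months for Col27a1 and 0.0506 and 0.127 for Col2a1.

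Of the 8 basement membrane chains, 2 rose (Col4a3 and Col4a4), 0 fell and 6 were not called, against 10.0% higher and 8.33% lower of all genes tested. The median log2 fold change of the class was 0.30, and 7 of the 8 chains were fitted higher, against 19231 of all 32905 genes tested. Their summed level was 35.0, 35.9 and 47.2 CPM at 6 months and 38.6, 40.8 and 44.9 at 24 months, and the ages overlapped. Col4a1 and Col4a2 together form the type IV collagen found in vessels throughout the body. Col4a2 was at 22.8, 21.4 and 30.7 CPM at 6 months and 21.8, 22.6 and 26.8 at 24 months, with a log2 fold change of -0.07 (95% interval -0.41 to 0.27). Col4a1 was at 4.41, 5.01 and 6.78 CPM at 6 months and 6.16, 4.89 and 6.20 at 24 months, with a log2 fold change of 0.09 (95% interval -0.33 to 0.51). Both intervals include 0. The endothelial markers summed to 297, 304 and 319 CPM at 6 months and 214, 297 and 340 at 24 months and the pericyte and smooth muscle markers to 307, 227 and 268 CPM at 6 months and 176, 309 and 366 at 24 months, with overlapping ages in each. Per kb, Col4a2 mRNA was above Col4a1 mRNA in every library, with a Col4a1 to Col4a2 ratio of TPM of 0.172, 0.208 and 0.196 at 6 months and 0.251, 0.191 and 0.205 at 24 months.

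Col4a3 and Col4a4 encode chains of a second type IV network that is known best from the kidney glomerulus. Col4a3 was at 0.973, 1.33 and 1.22 CPM at 6 months and 2.28, 1.76 and 2.23 at 24 months, and Col4a4 at 0.519, 0.695 and 1.07 CPM at 6 months and 1.42, 1.50 and 1.41 at 24 months. Every 24-month mouse lay above every 6-month mouse for both. The log2 fold change was 0.83 (SE 0.22) for Col4a3 and 0.92 (SE 0.28) for Col4a4, with adjusted p-values of 0.060 and 0.072. The 2 genes lie head to head on chromosome 1, Col4a4 (chr1:82448423-82586849, minus strand) and Col4a3 (chr1:82586921-82722059, plus strand), with 71 bases between their annotated starts. The other type IV genes form pairs of the same kind, Col4a1 with Col4a2 on chromosome 8, where the starts overlap by 22 bases, and Col4a6 with Col4a5 on chromosome X, 1308 bases apart. The stretch between Col4a4 and Col4a3 (chr1:82586850-82586920, plus strand, GRCm38.p6), taken from the RefSeq promoter entry of Col4a4, is shown because both neighbours rose; 49 of its bases are G or C, and neither CCAAT nor GGGCGG nor TATAAA occurs in it on either strand.
Col4a4-Col4a3 gap: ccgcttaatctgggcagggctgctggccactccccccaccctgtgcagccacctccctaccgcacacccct
Of Col4a3 exonic bases, 5.65% are shared with another gene on the opposite strand, and whether the counting used strand is not given in the sources used here.

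Among the other basement membrane chains, Col4a5, the partner of Col4a3 and Col4a4 in that network, was at 2.37, 2.23 and 2.23 CPM at 6 months and 1.17, 3.85 and 1.94 at 24 months. Its log2 fold change was 0.03 (95% interval -0.76 to 0.82), and mouse 4 alone was over 3 CPM. Col4a6 averaged under 1 CPM, with counts of 17, 21 and 29 in the 6-month mice and of 29, 36 and 24 in the 24-month mice. Col15a1 and Col18a1, large chains with interrupted helices that carry endostatin-like ends, are found at the outer face of vessel basement membranes. Col15a1 was at 2.01, 1.94 and 1.53 CPM at 6 months and 2.50, 1.97 and 3.15 at 24 months and Col18a1 at 1.36, 2.72 and 2.78 CPM at 6 months and 2.37, 3.18 and 2.50 at 24 months. Their log2 fold changes were 0.47 (SE 0.22) and 0.23 (SE 0.27), and neither was called. With libraries scaled by their totals, Col15a1 passed the threshold (log2 fold change 0.66, adjusted p = 0.098).

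Of the 25 other chains, 2 rose (Col7a1 and Col6a6), 1 fell (Col12a1) and 22 were not called, against 10.0% higher and 8.33% lower of all genes tested. The median log2 fold change of these 25 chains was 0.03. Their summed level was 187, 177 and 198 CPM at 6 months and 146, 156 and 176 at 24 months and did not overlap between the ages, but the sum in TPM did, at 90.1, 98.6 and 98.1 TPM at 6 months and 82.5, 90.0 and 95.1 at 24 months. Col19a1, Col25a1 and Col6a1 were the most abundant of the class in CPM.

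Col19a1 and Col25a1 are collagens known from neurons, the former a fibril-associated chain that is released and the latter a membrane-spanning chain that also occurs in amyloid plaques. Col19a1 was at 45.5, 49.3 and 50.1 CPM at 6 months and 27.2, 28.8 and 57.4 at 24 months, so mice 2 and 4 were below all 6-month mice and mouse 5 above them. Col25a1 was at 46.7, 16.8 and 46.3 CPM at 6 months and 22.2, 19.4 and 33.6 at 24 months, where mouse 11 had less than all others. The log2 fold changes were -0.35 (95% interval -0.90 to 0.19) and -0.54 (95% interval -1.31 to 0.22), and neither was called with all 6 mice. The neuron markers Snap25, Syt1, Rbfox3, Slc17a7, Gad1 and Gad2 summed to 9278, 8142 and 7938 CPM at 6 months and 5856, 6779 and 7671 at 24 months, lower at 24 months without overlap, none of the 6 being at 0. Taken singly, 3 of the 6 were lower in CPM without overlap, as were 16.3% of all genes tested and 5119 of the 15761 genes of at least 1 CPM. In TPM the ages overlapped for Snap25, the most abundant of the 6. It was at 2982, 2520 and 2516 TPM at 6 months and 1997, 2344 and 2641 at 24 months. The part of the neuron markers in the Col19a1 and Col25a1 levels was not tested.

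Type VI collagen forms beaded microfilaments from Col6a1, Col6a2 and a longer chain such as Col6a3. Col6a1 was at 26.6, 39.1 and 25.0 CPM at 6 months and 22.3, 27.7 and 18.5 at 24 months, and Col6a2 at 11.7, 12.8 and 13.8 CPM at 6 months and 19.6, 18.3 and 12.5 at 24 months. The chains were fitted in opposite directions, with log2 fold changes of -0.40 (95% interval -0.83 to 0.03) for Col6a1 and 0.39 (95% interval 0.01 to 0.77) for Col6a2, and neither was called. Col6a2 passed the threshold with library totals (log2 fold change 0.59, adjusted p = 0.085) and without mouse 5 (0.57, adjusted p = 0.035). Col6a1 was lowest in mouse 5 and highest in mouse 11, whereas Col6a2 was highest in mice 2 and 4. The ratio of Col6a1 to Col6a2 counts was 2.27, 3.05 and 1.81 at 6 months and 1.14, 1.51 and 1.48 at 24 months, and the ages did not overlap. This ratio was chosen after the values were seen and was not tested. Both genes lie on chromosome 10, Col6a1 (chr10:76708792-76726168, minus strand) and Col6a2 (chr10:76595762-76623630, minus strand).

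Col6a3 was at 1.07, 1.33 and 1.77 CPM at 6 months and 1.63, 2.20 and 1.94 at 24 months (log2 fold change 0.47, SE 0.24), far less per kb than its partners. Per kb its mean was 0.116 and 0.161 CPM at 6 and 24 months. Col6a4, Col6a5 and Col6a6 are alternative long chains whose genes neighbour each other on chromosome 9. Col6a4 was at 1.98, 1.36 and 1.25 CPM at 6 months and 1.82, 2.31 and 1.53 at 24 months (log2 fold change 0.31, SE 0.25), and Col6a5 averaged under 1 CPM with counts of 8, 19 and 20 in the 6-month mice and of 31, 20 and 13 in the 24-month mice. Col6a6 (chr9:105687809-105828160, minus strand) rose and had counts of 15, 16 and 19 in the 6-month mice and of 38, 41 and 36 in the 24-month mice. These counts were 0.487, 0.464 and 0.580 CPM at 6 months and 1.17, 1.19 and 1.06 at 24 months, which did not overlap, and the log2 fold change was 1.15 (SE 0.24) with an adjusted p of 0.052. Neither neighbour was called, with log2 fold changes of 0.31 (95% interval -0.25 to 0.86) for Col6a4 and 0.41 (95% interval -0.53 to 1.35) for Col6a5.

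Col7a1 (chr9:108953586-108984875, plus strand), the chain of the anchoring fibrils that fix epithelia to the tissue below, had counts of 12, 18 and 6 in the 6-month mice and of 39, 34 and 41 in the 24-month mice. These counts were 0.389, 0.521 and 0.183 CPM at 6 months and 1.20, 0.983 and 1.21 at 24 months, and all 24-month mice lay above all 6-month mice. It had the largest log2 fold change of the 44 chains, 1.62 (SE 0.34), with an adjusted p of 0.052. Promoter windows of 150 bases before the RefSeq start (GRCm38.p6) were available for 35 of the 44 chains as 38 entries, and for none of Col1a1, Col2a1, Col4a3, Col5a2, Col9a3, Col12a1, Col14a1, Col22a1 and Col26a1. The windows of Col7a1 (chr9:108953436-108953585, plus strand) and Col27a1 (chr4:63215262-63215411, plus strand, inside the annotated gene but free of its exons) are shown as those of risen chains that overlap no annotated exon, with the motif GGGCGG in capitals.
Col7a1: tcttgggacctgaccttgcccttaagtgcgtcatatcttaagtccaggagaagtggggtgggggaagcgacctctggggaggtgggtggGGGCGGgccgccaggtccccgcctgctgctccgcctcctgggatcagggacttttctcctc
Col27a1: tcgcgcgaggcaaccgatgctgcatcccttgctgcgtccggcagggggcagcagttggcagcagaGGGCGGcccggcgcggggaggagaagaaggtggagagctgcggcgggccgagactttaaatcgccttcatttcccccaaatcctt
GGGCGG, the core of the GC box, was found on either strand in 19 of the 38 collagen windows and in 28.6% of 32851 windows of all promoters. CCAAT was found in 8 of 38 and in 24.5% of all, and TATAAA in 4 of 38 and in 7.57% of all. No 2 of the printed matches overlap, and a match is only a description of the letters.

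Col12a1 (chr9:79598991-79718831, minus strand) was the chain that fell. It belongs, like Col14a1, to the chains that sit on the surface of fibrils without forming them. It was at 15.8, 14.3 and 14.6 CPM at 6 months and 5.55, 10.9 and 10.8 at 24 months, so every 24-month mouse was below every 6-month mouse and mouse 2 was lowest. The log2 fold change was -0.72 (SE 0.22) with an adjusted p of 0.078. Scaled by library totals it was -0.53 (adjusted p = 0.14), and with the filter of edgeR's filterByExpr -0.61 (adjusted p = 0.17). Col14a1 was at 1.17, 1.30 and 1.28 CPM at 6 months and 1.76, 1.76 and 1.62 at 24 months, without overlap and higher, but it was not called (log2 fold change 0.45, SE 0.19, adjusted p = 0.15). When libraries were scaled by totals, Col14a1 passed the threshold (log2 fold change 0.64, adjusted p = 0.086).

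None of the other chains of fibril surfaces was called. The type IX chains decorate type II fibrils. Col9a3 was at 5.16, 5.50 and 5.38 CPM at 6 months and 4.19, 4.63 and 5.76 at 24 months, with a log2 fold change of -0.14 (95% interval -0.50 to 0.22). Col9a2 was at 2.53, 3.24 and 3.45 CPM at 6 months and 2.31, 3.18 and 2.97 at 24 months, with a log2 fold change of -0.13 (95% interval -0.56 to 0.31). Col9a1 was at 1.27, 1.22 and 0.672 CPM at 6 months and 1.17, 0.781 and 0.999 at 24 months, with a log2 fold change of -0.10 (95% interval -0.76 to 0.56). All 3 were fitted lower with TMM and higher with library totals (0.05, 0.06 and 0.10). Of the 41 chains that average at least 1 CPM or were called, 10 changed sign between these scalings, none of them called. Col16a1 was at 5.84, 6.11 and 7.33 CPM at 6 months and 8.91, 7.72 and 6.82 at 24 months (log2 fold change 0.28, SE 0.16), Col20a1 at 0.876, 1.27 and 0.947 CPM at 6 months and 1.70, 0.983 and 1.06 at 24 months (log2 fold change 0.26, SE 0.28) and Col22a1 at 2.43, 2.09 and 2.32 CPM at 6 months and 2.80, 3.01 and 2.12 at 24 months (log2 fold change 0.21, SE 0.19), each with overlapping ages.

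Apart from Col25a1, the membrane-spanning collagens are Col13a1, Col17a1 and Col23a1, of which Col17a1 is a part of the hemidesmosomes that hold epithelial cells in place. Col13a1 was at 0.357, 1.19 and 1.37 CPM at 6 months and 1.45, 1.71 and 1.06 at 24 months, with mouse 10 far below the others. Col17a1 was at 2.50, 1.68 and 2.05 CPM at 6 months and 4.25, 2.54 and 2.38 at 24 months, highest in mouse 2. Col23a1 was at 2.69, 5.50 and 3.79 CPM at 6 months and 2.25, 3.96 and 2.38 at 24 months, highest in mouse 11. The log2 fold changes were 0.52 (95% interval -0.37 to 1.41) for Col13a1, 0.56 (95% interval -0.02 to 1.14) for Col17a1 and -0.48 (95% interval -1.14 to 0.17) for Col23a1, and none was called.

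The short-chain network collagens are Col8a1, Col8a2 and Col10a1. Col8a1 was at 3.24, 3.80 and 4.18 CPM at 6 months and 2.71, 3.53 and 3.20 at 24 months (log2 fold change -0.25, SE 0.18) and Col8a2 at 2.63, 2.93 and 5.59 CPM at 6 months and 2.65, 4.65 and 2.88 at 24 months (log2 fold change -0.13, SE 0.31). Col10a1, the marker of hypertrophic cartilage, had 6 to 9 counts in every library and a log2 fold change of 0.03 (SE 0.41). Of the remaining chains, Col26a1, a short collagen with an EMI domain, was at 4.05, 3.30 and 4.31 CPM at 6 months and 4.50, 3.56 and 3.15 at 24 months (log2 fold change -0.06, SE 0.19). Col28a1, a chain with von Willebrand factor A domains, was at 1.10, 0.869 and 1.16 CPM at 6 months and 1.23, 1.01 and 0.823 at 24 months (log2 fold change -0.03, SE 0.25).

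The chains that rose were of low level per length. Among the 11 of the 44 chains with the lowest mean CPM per kb over all libraries (from 0.0591 to 0.175), all 11 were fitted higher at 24 months, all 6 risen chains were among them, and the median log2 fold change was 0.83. In the other 33 chains, 16 were fitted higher and 17 lower, Col12a1 was the only call, and the median was -0.02. Over the 6606 tested genes between the same limits, 86.7% were fitted higher, 15.2% were called higher, 0.0606% were called lower and the median log2 fold change was 0.85. These genes are shorter, with a median exonic length of 1531 bases. Over the 13646 genes in the range of the other 33 chains, 49.6% were fitted higher, 3.39% were called higher, 6.03% were called lower and the median was -0.0038.

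**Figure D4:**
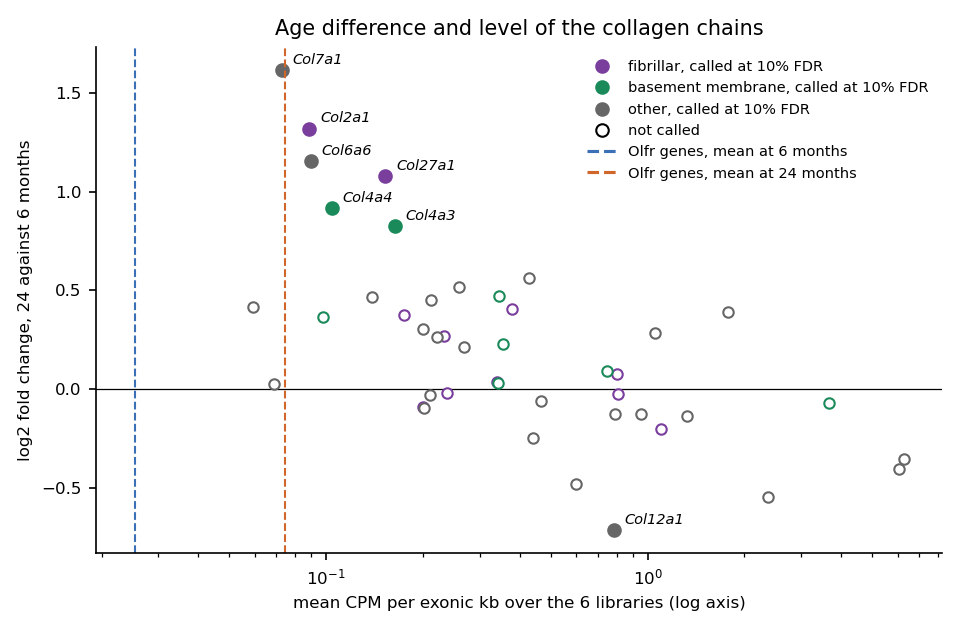
Log2 fold change of 24 against 6 months (y axis) against the mean CPM per exonic kb over the 6 libraries (x axis, log scale) of the 44 collagen chains, colored by class, with the chains called at 10% FDR filled and named. Dashed lines mark the mean level of the Olfr genes at 6 months (0.0254) and at 24 months (0.0747); the 6 risen chains lie between 0.0727 and 0.164.

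The Olfr genes lay at 0.0254 ± 0.00101 CPM per kb at 6 months and at 0.0747 ± 0.0175 at 24 months (SD, n = 3 mice each), a difference of 0.0493. The risen chains gained from 0.0644 (Col4a4) to 0.109 (Col27a1) CPM per kb. Relative to the Olfr level of the same age, they lay at 1.40 (Col7a1) to 4.65 times (Col4a3) at 6 months and at 1.47 to 2.81 times at 24 months. Col6a5 and Col10a1 were below the Olfr level at 24 months, at 0.908 and 0.930 times. By contrast Col12a1 was far from it, at 0.978 and 0.595 CPM per kb at 6 and 24 months. The Olfr density of each library was also treated as a background and taken from every gene in proportion to its exonic length. The quasi-likelihood test then called 0 collagen chains, with a smallest adjusted p of 0.30, and 25 genes of the whole set higher and 3 lower. An unadjusted p under 0.05 was left for 6 chains, Col4a3, Col27a1, Col6a2 and Col16a1 (higher) and Col12a1 and Col10a1 (lower). The unadjusted p was 0.10 for Col7a1, 0.082 for Col2a1, 0.052 for Col6a6 and 0.25 for Col4a4. The low chains Col10a1 and Col6a5 were then fitted at log2 fold changes of -3.18 and -2.69. The log2 fold changes were then 1.56 for Col7a1, 1.21 for Col2a1, 1.03 for Col27a1, 0.87 for Col6a6, 0.70 for Col4a3 and 0.54 for Col4a4, against -0.72 for Col12a1.

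Genes that make, bind or accompany collagen were described from 4 lists of 72 genes, all tested, of which 7 were called higher and 6 lower, near the 10.0% and 8.33% of all genes tested. Their median log2 fold change was -0.09, against 0.15 for the whole table and -0.14 for its genes of at least 1 CPM. Of the 31 enzymes that fold, modify and process collagen, 2 rose and 5 fell, against 10.0% higher and 8.33% lower of all genes tested. Of all 15761 genes that average at least 1 CPM, 383 were called higher and 2725 lower. The 31 enzymes were not limited to that level, and the 2 that rose lie under it. P4ha1, the catalytic subunit of the prolyl 4-hydroxylase that stabilizes the triple helix, fell from 60.5, 72.6 and 59.1 CPM to 43.0, 39.2 and 34.8 (log2 fold change -0.72, SE 0.12, adjusted p = 0.052). Pxdn, which crosslinks type IV collagen, fell (32.9, 34.8 and 37.0 CPM against 26.0, 20.2 and 23.6; log2 fold change -0.58, SE 0.12, adjusted p = 0.052). Mia3, which helps load collagen into transport carriers, also fell (156, 161 and 140 CPM against 95.5, 108 and 123; log2 fold change -0.48, SE 0.11, adjusted p = 0.055), as did Colgalt1, which attaches galactose to collagen (56.4, 61.9 and 59.5 CPM against 48.5, 44.3 and 49.6; log2 fold change -0.32, SE 0.09, adjusted p = 0.069). In these 4 genes the ages did not overlap. The fifth enzyme that fell was P4hb, and those that rose were Loxl2 and Loxl4, which crosslink collagen and were under 1 CPM in all 6 libraries.

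Of the 12 receptors of collagen, 2 rose (Lair1 and Gp6) and 0 fell, against 10.0% and 8.33% of all genes tested. Lair1, an inhibitory receptor of immune cells, was at 10.3, 9.68 and 9.62 CPM at 6 months and 12.0, 12.2 and 13.2 at 24 months (log2 fold change 0.33, SE 0.12, adjusted p = 0.096). Gp6, the platelet receptor, had 1 count in mouse 10 and 0.0324, 0.116 and 0.153 CPM against 0.616, 0.607 and 0.265 (log2 fold change 2.24, SE 0.55, adjusted p = 0.056). The level of Gp6 at 24 months was close to that of the Olfr genes, at 0.0170 and 0.0841 CPM per kb at 6 and 24 months.

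Of the 15 partners of type IV collagen in basement membranes, 2 rose (Hspg2 and Lama5) and 1 fell (Lamb1), against 10.0% and 8.33% of all genes tested. Hspg2, the heparan sulfate proteoglycan perlecan, was at 1.33, 1.56 and 1.22 CPM at 6 months and 2.90, 2.92 and 2.38 at 24 months (log2 fold change 0.99, SE 0.20, adjusted p = 0.052). Lama5, a laminin chain, was at 2.95, 2.17 and 2.53 CPM at 6 months and 4.53, 3.21 and 3.94 at 24 months (log2 fold change 0.61, SE 0.19, adjusted p = 0.081). Lamb1, another laminin chain, was at 15.02, 13.1 and 17.4 CPM at 6 months and 10.0, 8.53 and 8.61 at 24 months (log2 fold change -0.74, SE 0.14, adjusted p = 0.052). The ages did not overlap in these 3 genes. Of the 14 partners of fibrils, Tnxb, a tenascin, rose (0.454, 0.811 and 0.825 CPM at 6 months and 1.29, 1.82 and 1.09 at 24 months; log2 fold change 1.00, SE 0.30, adjusted p = 0.074) and none fell. Per kb, Hspg2 was at 0.0931 and 0.185 CPM per kb at 6 and 24 months, Tnxb at 0.0517 and 0.104 and Loxl2 at 0.0209 and 0.0568. After the Olfr density was taken off, none of the 72 genes was called, and 11 had an unadjusted p under 0.05.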

How the data were processed

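The authors trimmed single-end reads with Trim Galore 0.6.4, mapped them to GRCm38 with STAR 2.7.3a and counted reads on GENCODE exons with featureCounts (Subread 2.0.0), per the submitters' processing notes and methods. Deposited values were, per gene and library, 1 count and 1 TPM. The stated counting is fractional, yet all deposited counts were whole; the strand option is not given in the sources used here. The authors computed the deposited TPM from counts and exonic length.

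Genes reaching 10 counts summed over the 6 libraries were tested across the whole table by the quasi-likelihood test of edgeR 4.0.16 under R 4.3.3, with TMM factors and no covariate, and p-values were adjusted by Benjamini and Hochberg's method over all of them. The study used 1% FDR; calls are at 10% FDR. SE is the log2 fold change divided by the root of the F statistic. Exonic lengths were recovered from counts and TPM (98.8% of 19358 genes were within 1% of GENCODE vM21, as were 43 of 43 chains). Positions are from vM21 (GRCm38), where 44 of 44 chains were found. Values in every library are given for chains of at least 1 CPM on average and for any called; of the related lists, genes called are named, up to 4 with the smallest p per list in full. Members, lists and tests were chosen with earlier results of these data known. Alternatives were the edgeR likelihood ratio test, DESeq2 1.42.0, its size factors, library totals, no filter, filterByExpr, subtraction of the Olfr density and each mouse left out. The scripts were tested on simulated data. Figures and summaries used Python 3.11.15 with pandas 2.3.3 and matplotlib 3.10.9. With 3 mice per age, p-values rest on a small sample, and chains under 1 CPM on 6 to 56 counts per library.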

Additional observations from a re-analysis of the deposited data

How the results depend on the processing

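The 6 chains called higher and the 1 called lower (Col12a1) had the same calls with the likelihood ratio test, DESeq2, its size factors in edgeR and no filter. With library totals 9 were called higher and 0 lower, and with filterByExpr 6 and 0, where 43 chains were tested. With the Olfr density subtracted the counts were 0 higher and 0 lower, also with the scaling factors kept (chosen after seeing the data), and 0 and 0 without mice 17 and 4. Over the whole table, the subtraction left 25 genes called higher and 3 lower, and 174 and 1692 with the scaling factors kept. With 1 mouse left out, 0 to 7 chains were called higher and 0 to 2 lower. Of the 72 related genes 13 were called, 7 higher and 6 lower. These numbers became 8 and 3 with library totals, 6 and 5 with the likelihood ratio test and 4 and 5 with DESeq2. They were 4 and 4 with no filter and 5 and 4 with filterByExpr. The number called in either direction was 0 with the Olfr density subtracted (6 with the scaling factors kept), 0 without mice 17 and 4, and 0 to 10 with 1 mouse left out. Without mouse 10 or mouse 4, 0 genes of the whole table were called. The cause of these shifts was not tested. Log2 fold changes of the called chains kept their direction in all of these: Col7a1 between 1.30 and 2.01, Col2a1 1.02 and 1.51, Col6a6 0.71 and 1.34, Col27a1 0.86 and 1.33, Col4a4 0.38 and 1.24, Col4a3 0.54 and 1.02, Col12a1 -0.87 and -0.45. No paired analysis was possible because the mice of the 2 ages share no number. DESeq2 gave no adjusted p for 5745 genes.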
